A study of Caenorhabditis elegans with 12 samples.

Results

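P granules are condensates of RNA and protein that lie on the outer face of germ cell nuclei in Caenorhabditis elegans and that pass through the oocyte to the germ lineage of the embryo. In adults they hold newly exported germline transcripts and much of the machinery of small RNA silencing. Their genes are known chiefly for their work in germ cells, where loss of the constitutive proteins lowers fertility, mostly at raised temperature. The 7 genes described here are those of well known P granule proteins and nos-2, whose maternal mRNA is held in the granules. They were chosen by name among the 20222 genes listed, and each was found once. All 7 are annotated as protein coding, and all 7 passed the filter on low values that left 13650 genes to test.

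Polyadenylated RNA had been sequenced from whole animals that were picked at the last larval stage and collected on day 1 of adulthood, after growth at 20 °C on E. coli OP50. There were 4 strains with 3 biological replicates each: N2, the laboratory wild type; AV477, which carries dsb-2(me96); AV157, which carries spo-11(me44); and TY4986, which carries htp-3(y428). SPO-11 cuts DNA at the start of meiotic recombination, DSB-2 is needed for enough of those cuts to be made, and HTP-3 is a protein of the meiotic chromosome axis. Only 1 strain carried each mutation, so the mutation and the rest of that strain's genetic background cannot be told apart. Levels are given as TPM, a measure per length of exon that has the same sum in every library, so that genes can be compared with each other. Because whole animals were measured, fewer germ cells per animal, less RNA per germ cell and more RNA from other cells cannot be told apart.

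The 12 libraries held between 32422219 and 42527086 mapped reads, of which 78.8% to 97.9% lay in listed genes, and each of the 7 genes had at least 2205 reads in every library. The dsb-2 transcript averaged 18.5 ± 1.43 TPM (SD, n = 3) in the dsb-2 strain and 58.5 ± 3.64 TPM in N2, and the htp-3 transcript averaged 9.50 ± 2.82 TPM in the htp-3 strain and 71.6 ± 5.42 TPM in N2. The spo-11 transcript averaged 36.2 ± 2.18 TPM in the spo-11 strain and 33.3 ± 11.2 TPM in N2, so its level does not check that label. In the htp-3 libraries, 39 germline genes chosen as a reference, which hold none of the 7, averaged 4.6, 5.50 and 5.09 on the log2(TPM + 1) scale in replicates 1 to 3, so replicate 1 was lowest and replicate 2 highest.

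Most of the 7 P granule genes were lower in the spo-11 strain and all were lower in the htp-3 strain than in N2, and none was called different in the dsb-2 strain. In the spo-11 strain 6 of the 7 fell, by 0.79 to 1.37 on the log2(TPM + 1) scale, and glh-2 did not pass the test. In the htp-3 strain all 7 fell, by 0.69 to 0.96 on that scale. All 7 were also called lower without htp-3 replicate 2, with a median log2 fold change of -1.16, and 5 of the 7 without htp-3 replicate 1, with a median of -0.68. Calls were made where limma, run across all genes tested, gave an adjusted p under 0.05, and by that rule 22.1% of genes tested were called lower in the spo-11 strain and 19.7% in the htp-3 strain (and 55.6% and 39.5% higher). Between the dsb-2 strain and N2 the test called 0 of the 7, and limma-voom on rebuilt reads also called 0. Over all genes 0.264% were called by the test. An unadjusted limma p under 0.05 was found for 1 of the 7, pgl-3, and for 1448 of the 13650 genes tested. The comparisons with N2 share the same 3 N2 libraries, so the values for each mutant are not independent of each other.

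Summed over the 7 genes, the level was 1172 to 1264 TPM in the N2 libraries, 1355 to 1786 TPM in the dsb-2 libraries, 507 to 657 TPM in the spo-11 libraries and 502 to 981 TPM in the htp-3 libraries. The spo-11 and htp-3 libraries all lay below the N2 libraries in this sum, and the dsb-2 libraries all lay above them. The highest of the htp-3 sums came from replicate 2.

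**Figure D1:**
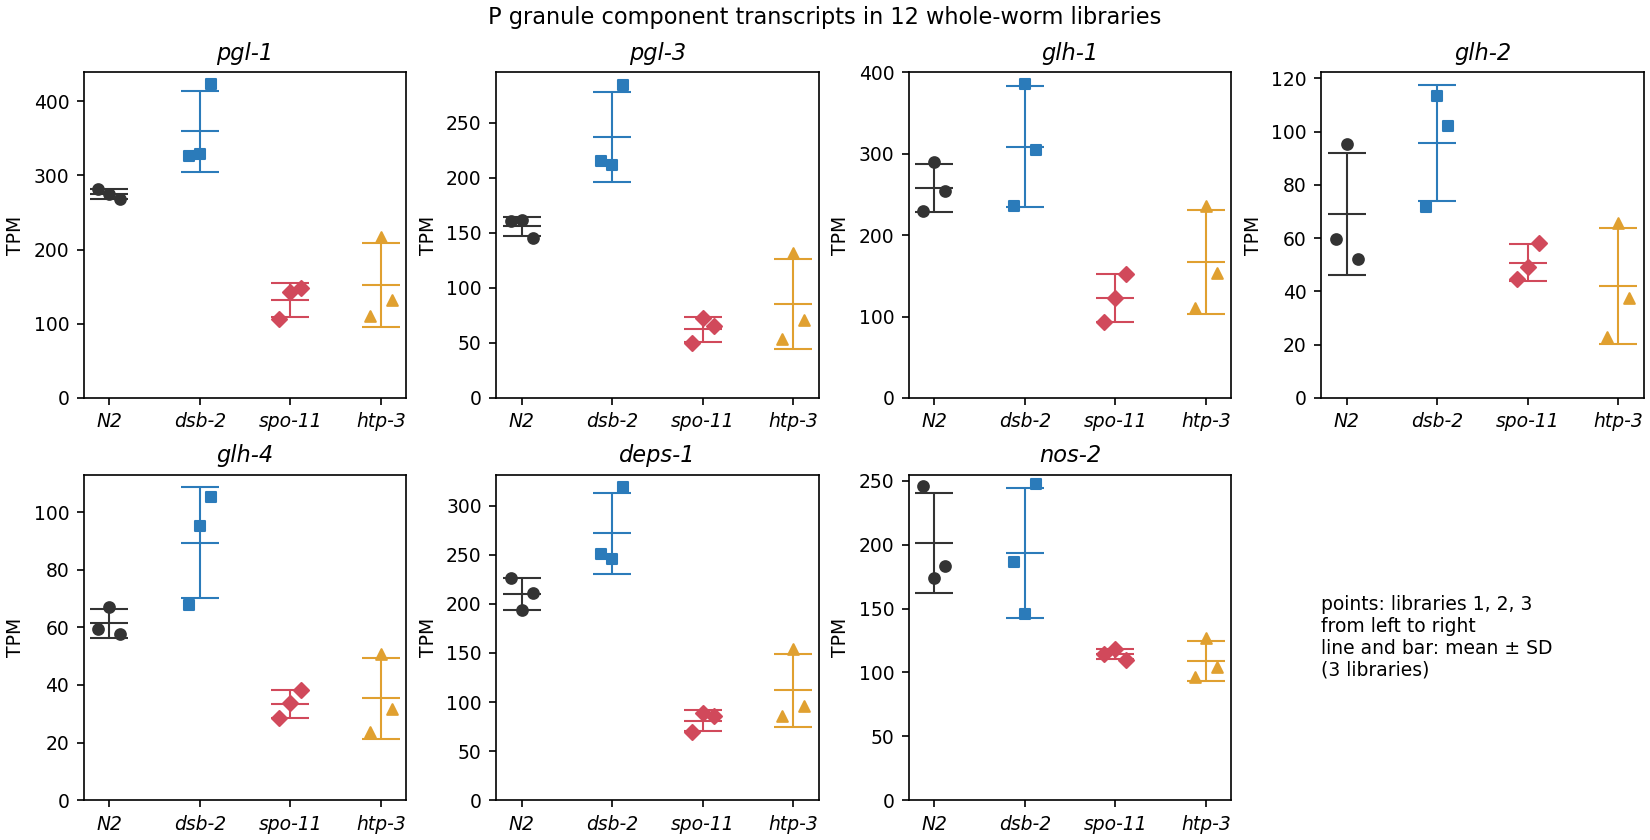
TPM of each of the 7 P granule genes (y axes, from 0) in every library of the 4 strains (x axes); points are replicates 1 to 3 from left to right, and lines and bars are the mean ± SD of 3 libraries. In the htp-3 strain the highest point is replicate 2 for each of the 7 genes, and for glh-1 and glh-2 the htp-3 points overlap those of N2.

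PGL-1 and PGL-3 are related scaffold proteins that self-associate and bind RNA, and they form the body of the granule. The pgl-1 gene (WBGene00003992, chromosome IV, 6974401 to 6977318 in WBcel235, reverse strand) had the highest mean of the 7 in N2, at 282, 275 and 268 TPM in replicates 1 to 3, although glh-1 was above it in replicate 2. The dsb-2 libraries gave 327, 329 and 423 TPM, the spo-11 libraries gave 106, 143 and 148 TPM, and the htp-3 libraries gave 109.8, 216 and 131.5 TPM. Every spo-11 and htp-3 library lay below every N2 library, and every dsb-2 library lay above them. In the spo-11 strain the log2 fold change of pgl-1 was -1.06 ± 0.21 (SE; limma adjusted p = 0.000322), which left a mean of 48.1% of that in N2. Its log2 fold change in the htp-3 strain was -0.91 ± 0.21 (limma adjusted p = 0.00249). That in the dsb-2 strain was 0.37 ± 0.21 and was not called (limma adjusted p = 0.545).

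The pgl-3 gene (WBGene00003994, chromosome V, 4755985 to 4758584, forward strand) was at 160.4, 161 and 145 TPM in the N2 libraries and at 215, 211 and 284 TPM in the dsb-2 libraries. The spo-11 libraries gave 49.96, 72.3 and 65.3 TPM, and the htp-3 libraries gave 53.3, 131 and 71.1 TPM. No mutant library overlapped the N2 libraries, with the dsb-2 libraries above and the others below. The fall in the spo-11 strain was 1.32 on the log2 scale (SE 0.26, limma adjusted p = 0.000229), and that in the htp-3 strain was 0.96 (SE 0.26, limma adjusted p = 0.00516). In the dsb-2 strain pgl-3 had the largest log2 fold change of the 7, 0.59 ± 0.26, which was not called (limma adjusted p = 0.455).

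The ratio of pgl-3 to pgl-1 was 0.569, 0.587 and 0.543 in the N2 libraries, 0.658, 0.643 and 0.671 in the dsb-2 libraries, and 0.470, 0.505 and 0.442 in the spo-11 libraries. These 3 strains did not overlap, with dsb-2 highest and spo-11 lowest. The htp-3 libraries spanned 0.485 to 0.606 and overlapped N2. By an exact two-sided permutation test against N2, p was 0.1 for dsb-2 and for spo-11, the smallest that 3 against 3 libraries allow, and 0.6 for htp-3, or 0.2, 0.2 and 0.72 adjusted over 6 ratio tests, so none passed. The ratio was chosen after the values were seen.

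GLH-1, GLH-2 and GLH-4 are germline RNA helicases of the DEAD-box family, related to Vasa of Drosophila, and they help to anchor P granules at the nuclear envelope. The glh-1 gene (WBGene00001598, chromosome I, 6854688 to 6857529, forward strand) was at 229.9, 289.6 and 255 TPM in the N2 libraries and at 236, 386 and 305 TPM in the dsb-2 libraries. The spo-11 libraries gave 93.6, 123 and 153 TPM, and the htp-3 libraries gave 110.2, 236 and 154 TPM. The spo-11 libraries lay below all N2 libraries, whereas htp-3 replicate 2 lay above N2 replicate 1. The fall was 1.08 on the log2 scale in the spo-11 strain (SE 0.25, limma adjusted p = 0.00114) and 0.69 in the htp-3 strain (SE 0.25, limma adjusted p = 0.0294). The htp-3 call did not hold without any one of N2 replicate 2, N2 replicate 3, htp-3 replicate 1 or htp-3 replicate 3, where the adjusted p lay between 0.0582 and 0.158, and without htp-3 replicate 1 the value was -0.43.

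The glh-2 gene (WBGene00001599, chromosome I, 6513928 to 6517507, forward strand) was at 59.6, 95.4 and 52.3 TPM in the N2 libraries and at 71.5, 114 and 102 TPM in the dsb-2 libraries. The spo-11 libraries gave 44.8, 49.3 and 58.2 TPM, and the htp-3 libraries gave 22.8, 65.7 and 37.5 TPM. Replicate 2 was the highest library for glh-2 in N2, dsb-2 and htp-3, and both the spo-11 and htp-3 libraries overlapped N2. The log2 fold change in the spo-11 strain was -0.40 ± 0.31 and was not called (limma adjusted p = 0.257). With the libraries scaled by median-of-ratios it was -1.09 and was called (limma adjusted p = 0.00213), and centred on the 39 germline reference genes it was 0.24 and was not called. The htp-3 strain had glh-2 lower by 0.78 on the log2 scale (SE 0.31, limma adjusted p = 0.0429). That call did not hold without any one of N2 replicate 1, N2 replicate 2, htp-3 replicate 1 or htp-3 replicate 3, where the adjusted p lay between 0.0619 and 0.235, and without htp-3 replicate 1 the value was -0.42.

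The glh-1 and glh-2 genes are close paralogs, and reads that fit both could have been divided between them, so their separate values are uncertain. As deposited, the ratio of glh-2 to glh-1 was 0.478, 0.400 and 0.382 in the spo-11 libraries and 0.205 to 0.329 in the N2 libraries, without overlap. The dsb-2 libraries, at 0.295 to 0.334, and the htp-3 libraries, at 0.207 to 0.279, overlapped N2. The same exact permutation test gave p = 0.1, 0.3 and 0.8 for spo-11, dsb-2 and htp-3 (adjusted 0.2, 0.45 and 0.8), and this ratio was also chosen after the values were seen.

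The glh-4 gene (WBGene00001601, chromosome I, 3726011 to 3731265, forward strand) was the least abundant of the 7 by its mean in every strain. It was at 59.4, 67.2 and 57.6 TPM in the N2 libraries and at 67.8, 95.0 and 105 TPM in the dsb-2 libraries. The spo-11 libraries gave 28.5, 33.7 and 38.1 TPM, and the htp-3 libraries gave 23.6, 50.9 and 31.6 TPM. No mutant library overlapped N2, and the dsb-2 libraries were again the high ones. The fall was 0.86 on the log2 scale in the spo-11 strain (SE 0.24, limma adjusted p = 0.0043) and 0.85 in the htp-3 strain (SE 0.24, limma adjusted p = 0.00817). The log2 fold change in the dsb-2 strain, 0.51 ± 0.24, was not called (limma adjusted p = 0.471).

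DEPS-1 is a P granule protein without a known catalytic domain, needed for the normal assembly of PGL-1 into granules and for RNA interference in the germline. The deps-1 gene (WBGene00022034, chromosome I, 506469 to 509056, forward strand) was at 226, 194 and 211 TPM in the N2 libraries and at 251, 246 and 319 TPM in the dsb-2 libraries. The spo-11 libraries gave 69.3, 88.5 and 85.5 TPM, and the htp-3 libraries gave 85.8, 154 and 95.5 TPM. The groups did not overlap N2, with the spo-11 and htp-3 libraries below it and the dsb-2 libraries above. The fall in the spo-11 strain, 1.37 on the log2 scale (SE 0.20, limma adjusted p = 1.49e-05), was the largest of the 7 and left a mean of 38.6% of that in N2. The fall of deps-1 in the htp-3 strain was 0.95 on the same scale (SE 0.20, limma adjusted p = 0.00111).

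NOS-2 is a Nanos-related regulator of translation, whose maternal mRNA is held in P granules and is translated in the primordial germ cells of the embryo. The nos-2 gene (WBGene00003784, chromosome II, 7065618 to 7067051, forward strand) was at 246, 174 and 184 TPM in the N2 libraries and at 187, 146 and 247 TPM in the dsb-2 libraries. The spo-11 libraries gave 114.7, 118 and 110.1 TPM, and the htp-3 libraries gave 96.3, 127 and 104.4 TPM. The dsb-2 libraries spanned the N2 libraries, and the spo-11 and htp-3 libraries lay below both. The fall was 0.79 on the log2 scale in the spo-11 strain (SE 0.19, limma adjusted p = 0.00153) and 0.87 in the htp-3 strain (SE 0.19, limma adjusted p = 0.00163). In the dsb-2 strain the log2 fold change was -0.07 ± 0.19, the only negative one of the 7 there (limma adjusted p = 0.971), and it turned to 0.08 without N2 replicate 1 and to 0.11 without dsb-2 replicate 2.

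**Figure D2:**
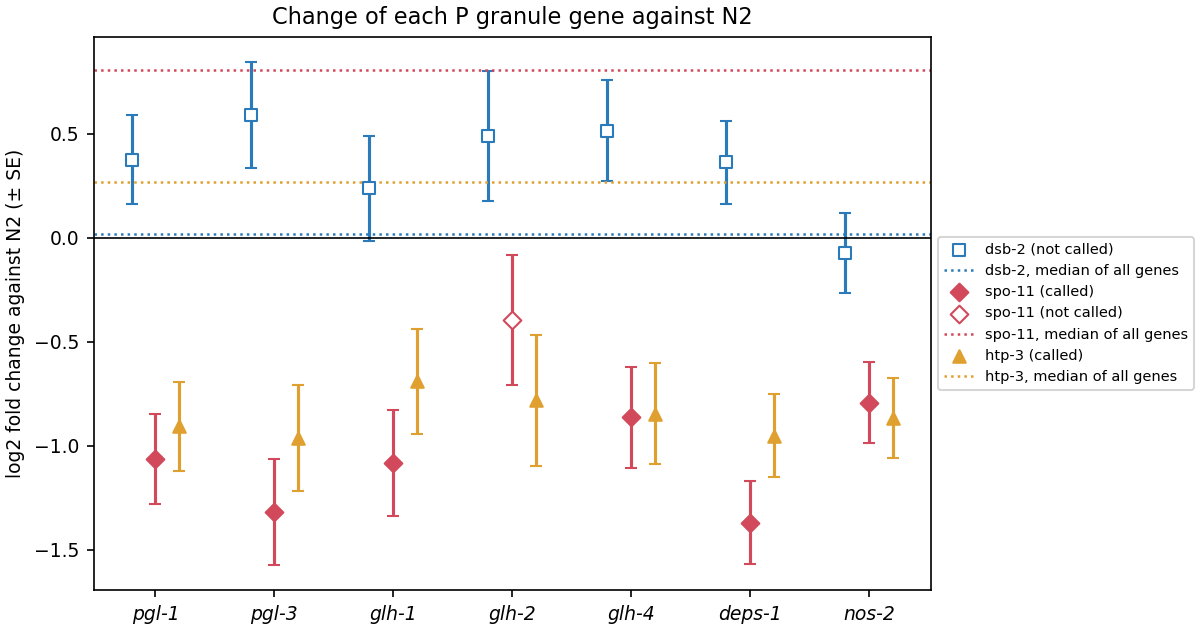
Log2 fold change (y axis, on the log2(TPM + 1) scale, ± SE) of each P granule gene (x axis) in each mutant strain against N2; filled symbols passed an adjusted p of 0.05, and dotted lines are the medians of all genes tested. The spo-11 and htp-3 values lie below 0, with glh-2 in the spo-11 strain unfilled and turning to 0.24 when centred on germline reference genes, while the dsb-2 values are unfilled and run from -0.07 to 0.59.

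Counted by overlap of the libraries, 6 of the 7 genes lay wholly below N2 in the spo-11 strain, where 26.7% of genes tested did. Against N2, 5 of the 7 did so in the htp-3 strain, where 20.2% of genes tested did, the exceptions being glh-1 and glh-2. In the dsb-2 strain pgl-1, pgl-3, glh-4 and deps-1 lay wholly above N2, against 8.64% of genes tested, although none was called. The log2 fold changes of the 7 had a median of -1.06 in the spo-11 strain, where all genes tested had a median of 0.80. In the htp-3 strain the medians were -0.87 for the 7 and 0.27 for all genes tested, and in the dsb-2 strain they were 0.37 and 0.02. In the spo-11 strain between 1.90% (for deps-1) and 24.1% (for glh-2) of genes tested had a lower fold change than the gene in question. The same share in the htp-3 strain ran from 2.56% to 10.4%.

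The mutants were also compared directly. All 7 genes were lower in the spo-11 strain than in the dsb-2 strain, by 0.72 to 1.91 on the log2 scale, where 23.8% of genes tested were called lower. All 7 were lower in the htp-3 strain than in the dsb-2 strain, by 0.80 to 1.55 on the log2 scale, where 23% of genes tested were called lower. Under upper-quartile scaling nos-2 was at -0.44 in the latter comparison and was not called (limma adjusted p = 0.0625). In both comparisons the libraries of the 2 strains did not overlap for any of the 7, against 26.1% and 20.7% of genes tested that lay wholly lower. The largest difference was that of pgl-3 in each case. Without dsb-2 replicate 2 or spo-11 replicate 1, the glh-2 difference between the spo-11 and dsb-2 strains was no longer called. When the libraries were centred on the germline reference genes, the difference of nos-2 turned to 0.12 for spo-11 and 0.05 for htp-3. With that centring 5 and 4 of the 7 respectively were still called lower, where 4.59% and 1.88% of all genes tested were. Of the 39 germline reference genes themselves, 13 and 9 were called lower and 9 and 7 higher.

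Between the htp-3 and spo-11 strains limma called 0 of the 7, and limma-voom on rebuilt reads also called 0. An unadjusted limma p under 0.05 was found for 0 of the 7 and for 7206 of the 13650 genes tested. Over all genes tested 46.7% were called in that comparison, 8.1% higher and 38.6% lower in the htp-3 strain, and the median over all genes was -0.32. The log2 differences of the 7 ran from -0.39 for glh-2 to 0.42 for deps-1, and the libraries overlapped for each gene, where 10.9% of genes tested lay wholly higher and 43.7% wholly lower. The count depended on scaling and on single htp-3 libraries. Under median-of-ratios scaling glh-1 and deps-1 were called higher in the htp-3 strain, by 0.72 and 0.75 on the log2 scale (limma adjusted p = 0.0241 and 0.0178), and under upper-quartile scaling by 0.55 and 0.57 (limma adjusted p = 0.0321 and 0.0134). Over all genes tested, 19% and 13.8% were called higher at those scalings. Without htp-3 replicate 1, 3 of the 7 were called higher in the htp-3 strain, and without htp-3 replicate 2 glh-2 alone was called, lower by 0.77 on the log2 scale (limma adjusted p = 0.0359). With 1 library left out, 817 to 1474 of the 13650 genes tested were called higher and 4408 to 5111 lower.

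The 7 genes had a similar order of abundance. In N2 the means ran from pgl-1 (275 ± 7.12 TPM, SD, n = 3) through glh-1 (258 ± 29.98 TPM), deps-1 (210.4 ± 16.3 TPM), nos-2 (201 ± 39.3 TPM), pgl-3 (156 ± 9.05 TPM) and glh-2 (69.1 ± 23.1 TPM) to glh-4 (61.4 ± 5.09 TPM). The neighbours pgl-1 and glh-1, deps-1 and nos-2, and glh-2 and glh-4 overlapped in their libraries. These means stood above those of 96.2% (pgl-1) to 79.1% (glh-4) of genes tested. In the dsb-2 strain pgl-3 and nos-2 changed places, in the spo-11 strain deps-1 and nos-2 did, and in the htp-3 strain pgl-1 and glh-1 did. The changed neighbours overlapped in the dsb-2 and htp-3 strains, and in the spo-11 strain nos-2 lay above deps-1 in all libraries.

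As a share of the summed TPM of the 7 genes, glh-2 made up 5.59 ± 1.74% in N2 and 8.51 ± 0.58% in the spo-11 strain. The share of deps-1 was 17.1 ± 1.46% in N2 and 13.6 ± 0.54% in the spo-11 strain. The share of pgl-3 was 12.6 ± 0.23% in N2, 15.2 ± 1.18% in the dsb-2 strain and 10.4 ± 0.93% in the spo-11 strain. The share of nos-2 was 16.3 ± 2.88% in N2, 12.4 ± 2.45% in the dsb-2 strain and 19.4 ± 2.98% in the spo-11 strain. In the spo-11 libraries the shares of pgl-3 and deps-1 lay below and that of glh-2 above all N2 libraries, while that of nos-2 overlapped them, with no test made. Of the 7 genes, 4 lie on chromosome I, which held 16.6% of genes tested, and none lies on chromosome III or X.

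The size of the falls depended on how the libraries were scaled. Median-of-ratios scaling moved the all-gene median from 0.80 to 0.26 in the spo-11 strain and from 0.27 to 0.10 in the htp-3 strain. With it, all 7 genes were called lower in both strains, by 1.09 to 2.07 on the log2 scale in the spo-11 strain and by 1.06 to 1.33 in the htp-3 strain, where 38% and 33.4% of all genes tested were called lower. Centring each library on the 39 germline reference genes instead sets the P granule genes against the mean of those genes. The 39 reference genes themselves then had 14 lower and 7 higher in the spo-11 strain. In the htp-3 strain they had 6 lower and 4 higher. With that centring, 4 of the 7 were still called lower in the spo-11 strain: deps-1 by 0.73, pgl-3 by 0.68, glh-1 by 0.45 and pgl-1 by 0.43 on the log2 scale, with limma adjusted p between 0.00101 and 0.0228, while 5.5% of all genes tested were called lower. The other values there were -0.23 for glh-4, -0.16 for nos-2 and 0.24 for glh-2, none of them called. For htp-3 the centred values ran from -0.32 to -0.04 and limma called 0, with 0 at an unadjusted p under 0.05, while 1.51% of all genes tested were called lower.

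**Figure D3:**
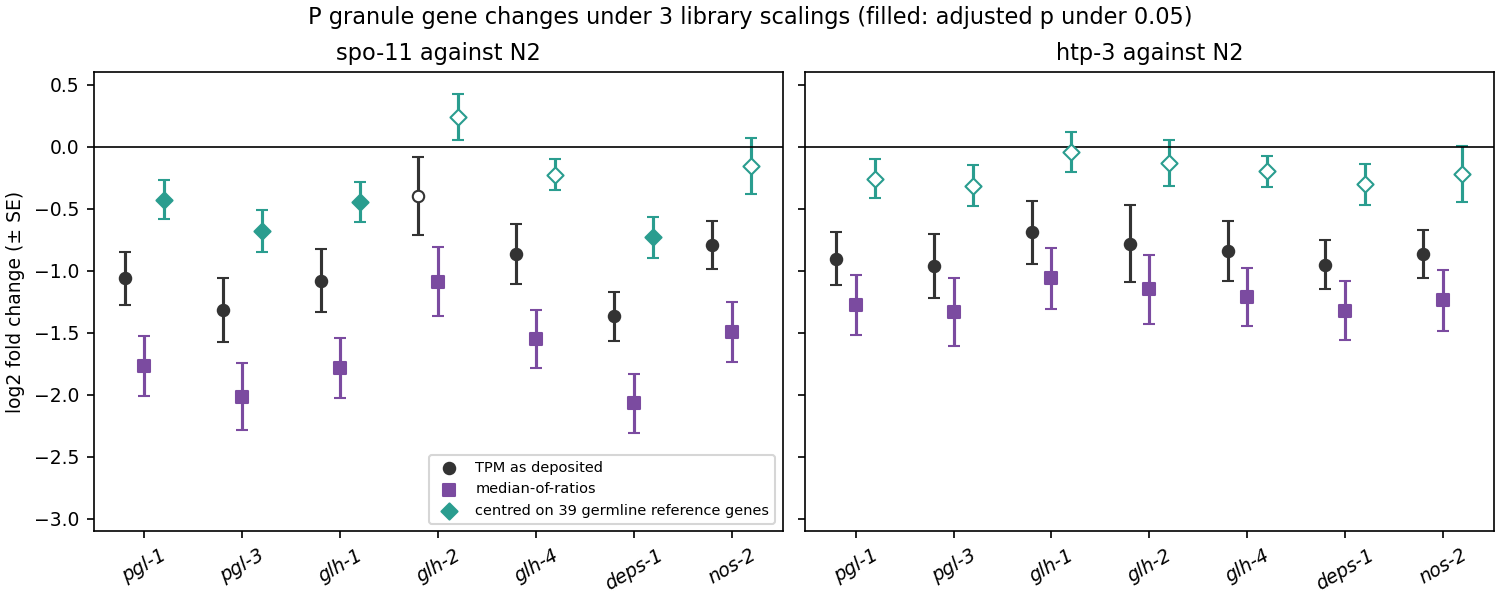
Log2 fold change (y axis, ± SE) of each P granule gene (x axis) in the spo-11 strain (left) and the htp-3 strain (right) against N2 under 3 scalings of the libraries; filled symbols passed an adjusted p of 0.05. Centred on germline reference genes, 4 of 7 are filled on the left, where glh-2 turns to 0.24, and 0 of 7 on the right.

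Within single libraries, the mean log2(TPM + 1) of the 7 genes exceeded that of the 39 germline reference genes by 1.49 to 1.63 in N2 and by 1.59 to 1.77 in the dsb-2 strain. The excess was 1.10 to 1.27 in the spo-11 strain and 1.21 to 1.46 in the htp-3 strain. In htp-3 replicate 2, which had the highest mean of the 7 genes among the htp-3 libraries (6.96 on the log2 scale against 5.94 and 6.30), the germline reference mean was the highest as well. The libraries of the spo-11 and htp-3 strains all had a smaller excess than those of N2, although htp-3 replicate 2, at 1.46, stood close to N2 replicate 2, at 1.49.

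**Figure D4:**
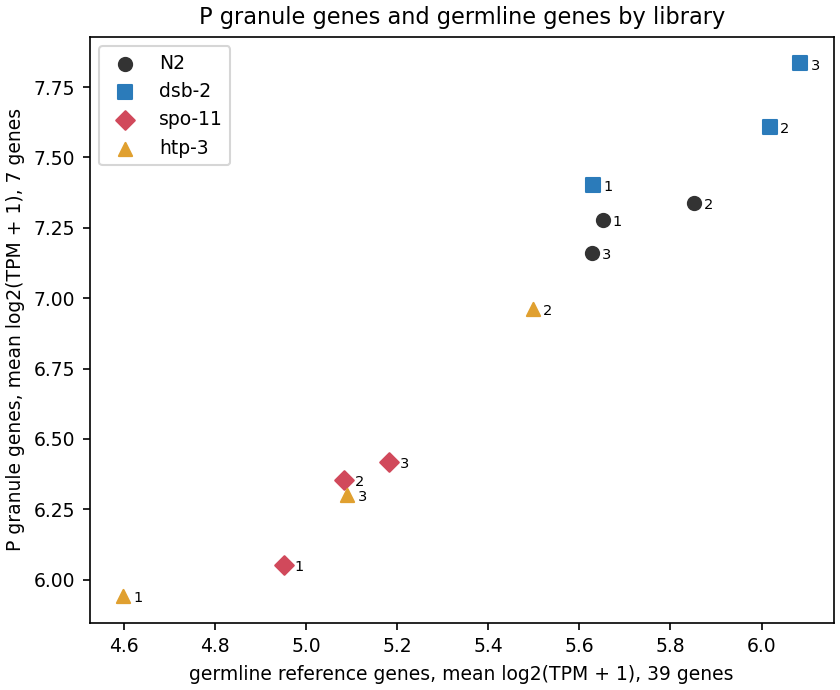
Mean log2(TPM + 1) of the 7 P granule genes (y axis) against that of the 39 germline reference genes (x axis); each point is a library, marked by strain and replicate number. Replicate 2 of the htp-3 strain (5.50 on the x axis, 6.96 on the y axis) lies highest of the htp-3 libraries on both axes.

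Genes were ranked by how near their profile over the 12 libraries lay to the mean profile of the 7, as the root mean square distance of log2(TPM + 1) after centring each gene, among 8986 genes with a mean of at least 5 TPM. The nearest were msh-6 (a DNA mismatch repair gene) at 0.0528, F23H11.2 at 0.0585, fcd-2 (a DNA crosslink repair gene) at 0.0660, C06A5.6 (simr-1, a small RNA pathway gene) at 0.0676 and natc-1 at 0.0701, where the median of all genes searched was 0.647. Of the 7 themselves, pgl-1 was nearest to their mean at 0.0725 and nos-2 farthest at 0.325. The nearest gene was C06A5.6 for pgl-1, klp-19 for pgl-3, K06A5.1 for glh-1, sqv-5 for glh-2, sep-1 for glh-4, B0001.7 for deps-1 and C14C11.7 for nos-2. Within the 7, pgl-1 and deps-1 were the closest pair, at 0.139, and pgl-3 and nos-2 the farthest apart, at 0.494.

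Other genes of P granule assembly were listed beside the 7: the paralogs pgl-2 and glh-3, the scaffold genes mip-1 and mip-2, meg-1 to meg-4, gls-1, and the RNA regulators car-1, cgh-1 and ife-1. All 12 were tested; 9 were lower in the spo-11 strain and 10 in the htp-3 strain, and none was higher. Their median log2 fold changes were -0.79 and -0.93, and 0.25 in the dsb-2 strain, where 0 were called. In the spo-11 strain cgh-1, a DEAD-box helicase of maternal mRNA particles, fell by 1.80 on the log2 scale, car-1, an RNA-binding partner of it, by 1.62, and mip-1 by 1.55 (limma adjusted p = 1.96e-05, 3.31e-06 and 2.85e-06). The translation factor gene ife-1, whose protein binds PGL-1, fell by 1.27 there (limma adjusted p = 1.52e-06). The genes not called in the spo-11 strain were meg-1, meg-2 and gls-1. In the htp-3 strain meg-1 fell by 0.96 (limma adjusted p = 0.00254), and meg-2 and gls-1 were at -0.52 and -0.25 and not called. Centred on the germline reference genes, 5 of the 12 were lower and 2 higher in the spo-11 strain, and 1 was lower in the htp-3 strain.

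Genes of the neighbouring germ granules, the Z granule and the mutator focus, and of the small RNA pathway numbered 33, of which 30 were matched and tested. Of these 18 were lower in the spo-11 strain and 17 in the htp-3 strain, with none higher and medians of -0.67 and -0.63. The lowest p in the spo-11 strain belonged to hrde-2, which fell by 1.62 on the log2 scale, and in the htp-3 strain to tofu-2, a factor of piRNA production, which fell by 1.02 (limma adjusted p = 8.17e-07 and 0.000171). Centred on the germline reference genes, 7 were lower and 3 higher in the spo-11 strain, with a median of -0.04, and 1 was lower and 3 higher in the htp-3 strain, with a median of 0.01.

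Of 12 germ granule Argonaute genes, 8 were lower and 2 higher in the spo-11 strain, and 8 were lower and 0 higher in the htp-3 strain. The 2 higher, alg-3 and alg-4, passed the filter only through the spo-11 libraries, so their calls are no test. Centred on the germline reference genes, the counts were 5 lower and 3 higher, and 3 lower and 2 higher, with the same limit for alg-3 and alg-4. The copy prg-2 of the piRNA-binding Argonaute gene prg-1 is annotated as a pseudogene, and reads could have been divided between this pair, so both are uncertain as single genes. The fall of prg-2 was 2.45 and 1.51 on the log2 scale in those strains, and prg-1 itself fell by 0.67 and 0.78 (limma adjusted p = 7.96e-07, 0.000359, 0.0138 and 0.00819). The 2 that rose in the spo-11 strain were alg-3 and alg-4, Argonautes of spermatogenesis, which are near-identical and uncertain as single genes. In N2 they averaged 0.17 and 0.20 TPM, and in the spo-11 strain 17.4 and 17.9 TPM. Neither would have passed the filter on low values without the spo-11 libraries. The rise of alg-3, by 3.90 on the log2 scale, is therefore given without a test. Summed TPM of 24 sperm marker genes was 771 to 1657 in the spo-11 libraries, 83.2 to 145 in the htp-3 libraries, 63.4 to 110.4 in N2 and 81.2 to 103 in the dsb-2 libraries. Of the 23 sperm markers tested, 22 were higher in the spo-11 strain and 6 in the htp-3 strain, with 1 lower in each. The count of 6 became 21 with germline centring, 4 under median-of-ratios scaling, 13 without htp-3 replicate 2 and 4 without htp-3 replicate 1. The marker spe-19 was listed at 0 in all N2 libraries and spe-29 in all dsb-2 libraries. The part of sperm RNA in the P granule results was not tested.

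Nanos and Pumilio relatives, which act with Nanos proteins on germline mRNAs, numbered 11. Of these 7 were lower in each of the spo-11 and htp-3 strains, and puf-12 was higher in the spo-11 strain, by 0.74 on the log2 scale (limma adjusted p = 0.0274), a call that was not kept under median-of-ratios scaling. The Nanos gene nos-1 fell by 0.98 and 0.92, and nos-3 was at -0.50 and -0.52 and not called. The germline stem cell regulators fbf-1 and fbf-2 were at -0.53 and -0.44 in the spo-11 strain and at -0.32 and -0.34 in the htp-3 strain, and were not called. The oocyte Pumilio gene puf-5 fell by 1.76 and 1.41 on the log2 scale (limma adjusted p = 5.6e-06 and 0.000217). All 10 maternal RNA-binding genes, which act on mRNAs of the oocyte and early embryo, were lower in both strains, with medians of -1.02 and -0.97; pos-1 fell by 1.46 and 1.05. Centred on the germline reference genes, 5 and 2 of the 10 were called lower, and of the 11 Nanos and Pumilio relatives 5 and 4 were lower and 1 higher in each strain.

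The 39 germline reference genes, mostly of meiotic pairing, synapsis and recombination, had 25 lower in the spo-11 strain and 26 in the htp-3 strain, with none higher and medians of -0.74 and -0.66. The 14 oocyte and eggshell markers had 11 lower in each, with medians of -1.51 and -1.11, and 2 higher in the spo-11 strain. With germline centring 10 and 6 were lower and 3 and 1 higher, and under median-of-ratios scaling 12 and 13 were lower and none higher. Their summed TPM was 6093 to 6821 in spo-11, 4476 to 7046 in htp-3, 8711 to 9853 in N2 and 9874 to 13834 in dsb-2. Against N2, limma called 0 genes of any of these lists in the dsb-2 strain.

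Markers of somatic tissues were counted in the same libraries, where 55.6% of all genes tested were higher in the spo-11 strain and 39.5% in the htp-3 strain. Of 10 muscle markers 9 were higher in each of the spo-11 and htp-3 strains, and their summed TPM was 3943 to 4827 in spo-11, 3020.3 to 5076 in htp-3, 1745 to 2217 in N2 and 1845 to 2349.5 in dsb-2. Of 12 neuron markers 11 and 9 were higher, with summed TPM of 723 to 930.2 in spo-11, 421 to 479 in htp-3, 255 to 329.5 in N2 and 339 to 356 in dsb-2. Of 7 intestine markers 4 and 6 were higher, the first close to the share of all genes, with summed TPM of 4971 to 6554 in spo-11, 4608 to 7493 in htp-3, 1616 to 2487 in N2 and 1677 to 2225 in dsb-2. Of 5 gonad sheath and distal tip markers tested, 4 and 2 were higher, the second close to the share of all genes, 1 was lower in the spo-11 strain, and their list of 6 summed to 209 to 255 TPM in spo-11, 129.6 to 169 in htp-3, 128 to 153 in N2 and 110.4 to 132 in dsb-2. Of 16 early embryo markers 8 passed the filter on low values, with summed TPM over all 16 of 36.3 to 64.8 in spo-11, 18.04 to 23.1 in htp-3, 11.7 to 13.6 in N2 and 10.9 to 14.5 in dsb-2; med-1 and tbx-35 were listed at 0 in all N2 and dsb-2 libraries, and sdz-23 in all N2 libraries. Under median-of-ratios scaling the muscle counts were 7 and 6 and the intestine counts 3 and 4, where 46.2% and 32% of all genes tested were called higher. The intestine count of 3 is close to that share. The part of these markers in the P granule results was not tested.

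**Figure D5:**
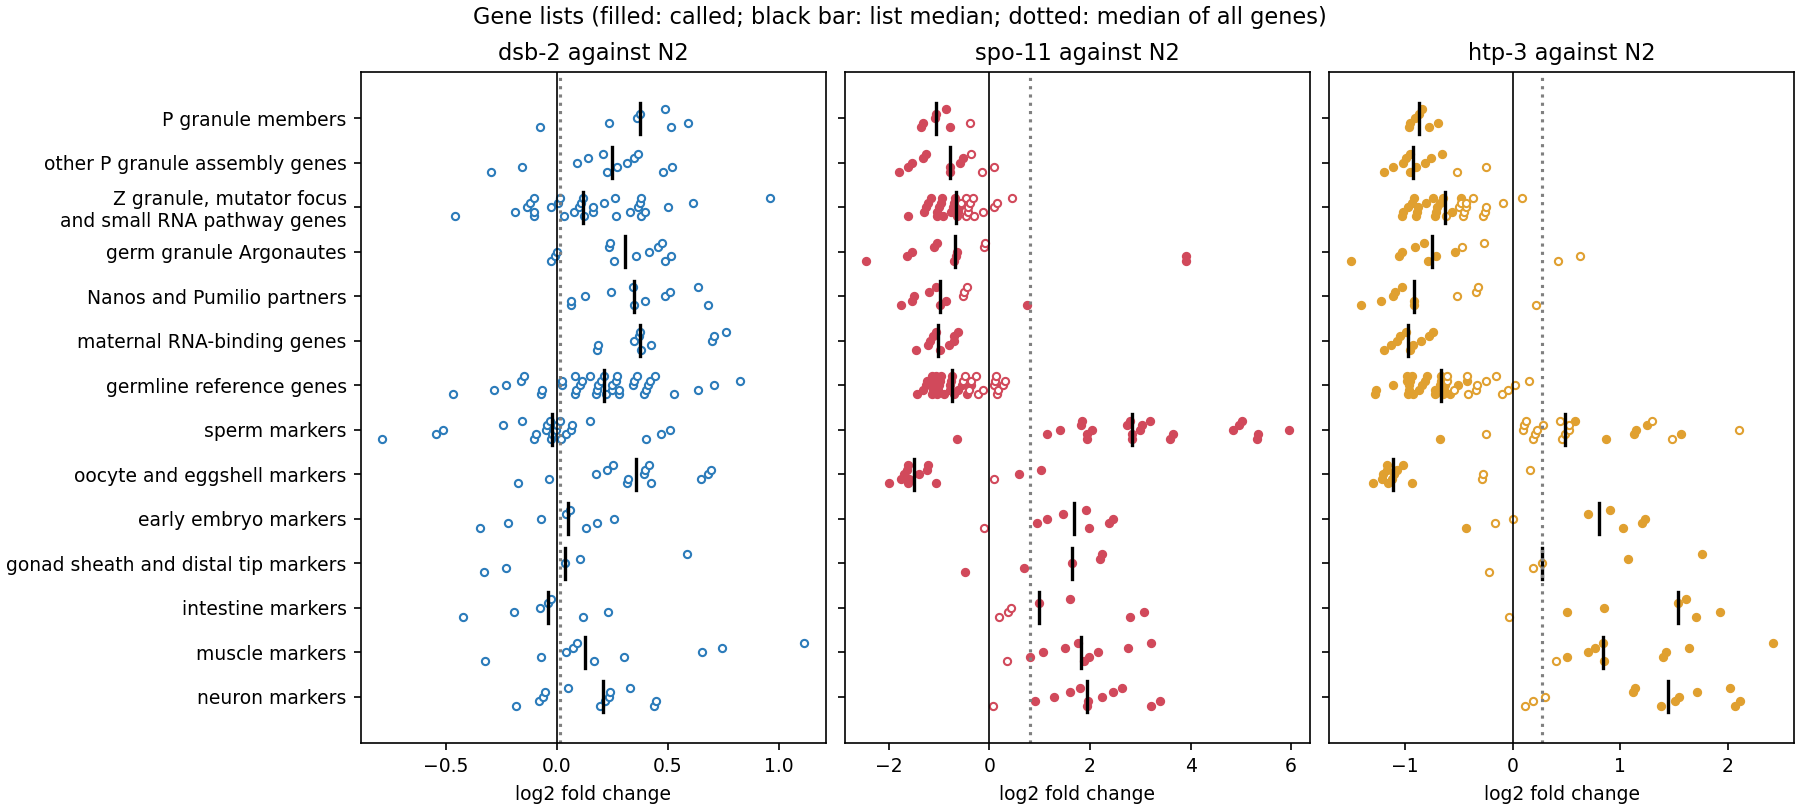
Log2 fold change against N2 (x axes, on the log2(TPM + 1) scale) of every gene tested in each list (y axis), with a panel for each mutant strain; filled points were called, black bars are list medians and the dotted line is the median of all genes tested. The P granule genes have medians of -1.06 and -0.87 in the spo-11 and htp-3 strains, where the muscle, neuron and intestine lists have medians above 0, and in the dsb-2 panel no point is filled.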

How the data were processed

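The authors deposited a table per library with RPKM and TPM values for each gene, per the file headers; a further column headed as an expression value repeats the RPKM. Per the submitters' processing notes, reads were placed on WBcel235. No aligner, counter, annotation release or strandedness is named in the sources used here. Of the deposited gene identifiers, 99.2% matched Ensembl 115. Reads were rebuilt from the steps of the RPKM values. The annotated exon length gave whole reads for 4833 genes, and for the others the shortest length that did so was searched for. All 18042 genes above 0 in 4 libraries or more then gave whole numbers within 0.05 reads. Because lengths were searched, that result is partly built in and does not check the rebuilt reads.

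Log2(TPM + 1) was computed from the deposited TPM, and genes that reached 1 TPM in 3 libraries or more were tested with limma 3.58.1 (R 4.3.3), with a mean-variance trend, a mean per strain and all 12 libraries in one fit. Benjamini-Hochberg adjustment ran over all 13650 genes. Such values understate the change of low genes. Genes from 13 further lists were described by counts and medians; 203 of 207 listed names were matched, some by a current symbol. The genes named are the 7, the 3 mutated genes, by list the 3 with the smallest p in the spo-11 and in the htp-3 comparison, and the nearest profiles. For brevity not every gene that this rule gives is named, and the marker lists are given as counts; other genes named were chosen after their values were seen. The members and lists were chosen with earlier results of these data known.

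Libraries with the same number were checked for shared deviations from their strain means; all 3 pairs exceeded 0.1 only between htp-3 and spo-11 (r = 0.12, 0.44 and 0.23, across genes), from the data and not the labels. Alternatives were other scalings, filters and pseudocounts, RPKM, limma-voom, a replicate block, the compared strains alone and each library left out. Replicate libraries differed by more than sampling noise, so none was merged. The procedure was tested on simulated data with a small part of the genes changed, in the dsb-2 strain only, and an even spread. That test does not cover the wide shifts of the spo-11 and htp-3 comparisons or uneven replicates.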

Additional observations from a re-analysis of the deposited data

How the results depend on the processing

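Over the 6 comparisons and 7 genes, 664 of the values obtained under alternatives kept their direction and side of the threshold, 31 lost a call, 9 gained one and 12 changed sign, 2 of which are among those that lost a call. The replicate block changed no member call: the counts called stayed at 0 for dsb-2 against N2, 6 for spo-11 and 7 for htp-3 against N2, 7 for each of spo-11 and htp-3 against dsb-2, and 0 for htp-3 against spo-11. With 1 library left out, these counts ran from 0 to 0, 6 to 6, 5 to 7, 6 to 7, 7 to 7 and 0 to 3 in the same order. Centred on the germline reference genes, the counts were 0 for htp-3 against N2 and 4 for htp-3 against dsb-2, where 1.51% and 1.88% of genes tested were called lower. For htp-3 against spo-11 the count was 2 under median-of-ratios and 2 under upper-quartile scaling, all higher, where 19% and 13.8% of genes tested were called higher.

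Signs changed as follows. For nos-2, dsb-2 against N2 became 0.08 without N2 replicate 1 and 0.11 without dsb-2 replicate 2; spo-11 and htp-3 against dsb-2 became 0.12 and 0.053 with germline centring; and htp-3 against spo-11 became 0.25 under median-of-ratios, 0.078 under upper-quartile scaling and 0.0086 without htp-3 replicate 1. For glh-2, spo-11 against N2 became 0.24 with germline centring. For htp-3 against spo-11, glh-4 became -0.09 without spo-11 replicate 1 and -0.27 without htp-3 replicate 2, where pgl-1 became -0.12 and pgl-3 -0.0048. With 1 library left out, the values of that comparison ran from -0.12 to 0.36 for pgl-1, -0.0048 to 0.64 for pgl-3, -0.27 to 0.27 for glh-4 and -0.19 to 0.0086 for nos-2. The cause was not tested. The htp-3 against N2 call was also lost for glh-1 and glh-2 under upper-quartile scaling and without the filter, and for glh-2 with a pseudocount of 5 and with only the strains compared; nos-2 lost its call in htp-3 against dsb-2 under upper-quartile scaling.

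Counts over all genes that moved by more than 1.5 times were these. For spo-11 against N2, the 3010 lower became 5181 under median-of-ratios and 751 with germline centring, and the 7584 higher became 4731 at a minimum of 5 TPM. For htp-3 against N2, the 2684 lower became 4554, 1783 (upper-quartile), 206 (germline centring) and 1789 (without htp-3 replicate 1), and the 5397 higher became 8851 with germline centring. For spo-11 against dsb-2, the 3243 lower became 5350 and 626, and the 7635 higher 4757. For htp-3 against dsb-2, the 3146 lower became 2007 and 256, and the 5673 higher 10015. For htp-3 against spo-11, the 1106 higher became 2595 and 1885, and the 5264 lower 3042. For dsb-2 against N2, the 26 higher fell to 15 and the 10 lower ranged from 2 to 19. Read depth did not limit these 7 genes, which had at least 2205 reads each; the 3 libraries per strain limit the precision.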
